A study of Homo sapiens with 6 samples.

Results

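The 7 genes that encode the FOS and JUN proteins (FOS, FOSB, FOSL1, FOSL2, JUN, JUNB and JUND) were examined for binding of DEK, a chromatin protein first known as part of a leukaemic fusion, in U937 cells. They were chosen by name among 20163 annotated protein-coding genes, and each gene was followed over a window that ran from 10 kb before to 10 kb after its body in GENCODE release 44 on GRCh37. U937 is an established human line of myeloid origin, grown here without any treatment. By chromatin immunoprecipitation and sequencing (ChIP-seq), the study collected 2 precipitations with an antibody against DEK, 2 with an antibody against histone H3 trimethylated at lysine 4 (H3K4me3, a mark of the start sites of active genes) and 2 samples of chromatin without precipitation, for which no peak list was analysed here. All 6 samples come from the same line in the same state, so that the comparisons were between genes and between replicate peak lists, and none was between conditions.

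FOS and JUN proteins carry a basic leucine zipper, through which a FOS protein pairs with a JUN protein and a JUN protein also pairs with another JUN protein. The dimer is AP-1, which binds the site TGACTCA and, with other partners, the cyclic AMP response element (CRE) TGACGTCA. FOS, FOSB, JUN and JUNB are immediate early genes, switched on within minutes of a growth signal through elements in DNA that is already open, whereas JUND is transcribed steadily in many cells. In myeloid cells AP-1 takes part in monocytic differentiation, and JUNB is known to restrain the growth of myeloid progenitors.

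The DEK lists differed in length. Replicate 1 held 15017 peaks with 988363 tags (the sequenced fragments counted in a peak), and replicate 2 held 152779 peaks with 4172422 tags. The false discovery rate that came with the peaks was 100% throughout replicate 1 and lay between 0.74% and 16.67% in replicate 2. What gave rise to the rate of 100% is not given in the sources used here, and the replicate 1 peaks and the intervals that rest on them carry that doubt. The total of reads in each sample was not given, so that tags were not compared between replicates, and the 95% exact Poisson intervals below cover counting error only. H3K4me3 covered a transcription start site (TSS) in both precipitations at 8 of 15 myeloid markers, SPI1, CEBPA and MPO among them. That share is close to the 55.2% of all protein-coding genes, so that the count is no check of the cell type. It was absent there from the granule genes ELANE, PRTN3 and AZU1 and from ITGAM, LYZ, MNDA and S100A8.

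The DNA in question is shown first for the start sites on which the results turn. The 300 bases before the canonical TSS, read on the gene's strand from GRCh37, were chr14:75745231-75745530 (plus strand) for FOS, chr1:59249720-59250019 (minus strand) for JUN, chr19:12902000-12902299 (plus strand) for JUNB and chr19:18392433-18392732 (minus strand) for JUND. Capitals mark the motifs searched on both strands, which were the GC box GGGCGG, the CCAAT box, the TATA element TATAAA, the CRE and its variant TGACATCA, the AP-1 site, the E-box CACGTG, the PU.1 core GAGGAA and the CArG box. FOS and JUNB are shown as the members with DEK peaks in both lists, JUN for the member peak with the most tags in replicate 2, and JUND as the member whose start site lay in a gap between peaks.
FOS: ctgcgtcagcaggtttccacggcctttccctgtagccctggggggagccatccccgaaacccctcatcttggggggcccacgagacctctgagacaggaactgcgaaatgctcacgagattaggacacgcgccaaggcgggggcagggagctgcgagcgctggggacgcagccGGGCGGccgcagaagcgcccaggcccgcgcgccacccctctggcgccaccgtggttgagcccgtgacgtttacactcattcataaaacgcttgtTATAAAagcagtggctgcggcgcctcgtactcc
JUN: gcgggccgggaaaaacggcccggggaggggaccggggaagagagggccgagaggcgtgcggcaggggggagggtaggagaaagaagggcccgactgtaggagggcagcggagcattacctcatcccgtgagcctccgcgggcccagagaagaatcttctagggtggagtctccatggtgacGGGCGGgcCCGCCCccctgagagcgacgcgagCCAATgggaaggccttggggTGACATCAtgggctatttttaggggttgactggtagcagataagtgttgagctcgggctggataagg
JUNB: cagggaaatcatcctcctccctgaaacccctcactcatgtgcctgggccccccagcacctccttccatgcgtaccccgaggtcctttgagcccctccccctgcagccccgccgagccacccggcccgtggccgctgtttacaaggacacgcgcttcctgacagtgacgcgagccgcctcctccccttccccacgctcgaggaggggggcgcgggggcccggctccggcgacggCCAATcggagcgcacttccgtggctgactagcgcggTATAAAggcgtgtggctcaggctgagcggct
JUND: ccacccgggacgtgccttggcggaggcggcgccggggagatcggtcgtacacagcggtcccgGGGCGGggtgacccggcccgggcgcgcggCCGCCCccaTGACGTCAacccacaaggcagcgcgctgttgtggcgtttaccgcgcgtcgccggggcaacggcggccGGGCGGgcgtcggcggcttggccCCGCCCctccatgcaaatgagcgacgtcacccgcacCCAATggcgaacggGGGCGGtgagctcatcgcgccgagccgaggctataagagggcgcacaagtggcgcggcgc

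These promoters lay above the median in GC content, FOS, FOSB and JUN by little (60.6%, 58.5% and 58.5% of promoters lay at or below them). The GC content was 65% for FOS, 64.3% for FOSB, 69.3% for FOSL1, 71.7% for FOSL2, 64.3% for JUN, 69% for JUNB and 75% for JUND, against a median of 62% over 19862 promoters of the same length. JUND had the densest CpG content, with an observed-to-expected ratio of 1.14, and 98.4% of promoters lay at or below it. JUN had the lowest ratio of the 7, 0.716, with 47% of promoters at or below it. A GC box stood in 6 of the 7 member promoters (all but JUNB) and in 60.9% of all promoters. TATAAA stood in FOS, FOSB and JUNB, between 33 and 25 bases before the TSS, and in 11% of all promoters. CCAAT stood in the 3 JUN genes and in none of the FOS genes (37.8% of all promoters). The AP-1 site was in none of the 7 (3.59% of all promoters), nor was the E-box (8.9%), and the PU.1 core was in FOSL1 and FOSL2 (27.4%).

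Words that match known signal-responsive elements were found around the start sites, and 30 bases around each are given with the motif in capitals. Binding of a factor to these words was not measured. The CRE variant of JUN lay 67 to 60 bases before the TSS (chr1:59249768-59249797, minus strand; 2.04% of all promoters hold this word), and the CRE of JUND lay 200 to 193 bases before it (chr19:18392614-18392643, minus strand; 2.57%). The CArG box, the binding site of serum response factor, lay 314 to 305 bases before the TSS of FOS (chr14:75745207-75745236), 274 to 265 bases before that of FOSB (chr19:45970970-45970999) and 1538 to 1529 bases before that of JUNB (chr19:12900752-12900781), all on the plus strand. It stood within 300 bases of the TSS in 1.4% of all promoters and, among the members, in FOSB. FOSB also had a CRE at 325 to 318 bases (chr19:45970918-45970947), and FOSL2 had an AP-1 site 4 to 10 bases past its TSS (chr2:28615718-28615747), both on the plus strand. FOSL1 had an AP-1 site across the TSS itself (chr11:65667843-65667872, minus strand). Inside the 300 bases, the CRE variant of JUN and the CArG box of FOSB lay in a DEK peak of replicate 2, and the CRE of JUND did not. Outside them, the search covered only replicate 2 peaks over a TSS and shared intervals, so that the other words lay in peaks by design. The CArG box of JUNB was found in an interval shared by both lists.
JUN CRE variant: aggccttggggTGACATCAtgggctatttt
JUND CRE: ggccgcccccaTGACGTCAacccacaaggc
FOS CArG box: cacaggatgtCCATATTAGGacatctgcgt
FOSB CArG box: cggccgagctCCTTATATGGctaattgcgt
JUNB CArG box: cttcctgtgcCCTAATATGGgcggcgggga
FOSB CRE: gggattccctcTGACGTCAttgctaggata
FOSL2 AP-1 site: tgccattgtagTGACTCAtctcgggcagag
FOSL1 AP-1 site: gcacggcgcgggTGAGTCAgaacccagcag

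DEK peaks of replicate 1 fell in the windows of FOS and JUNB, and those of replicate 2 in the windows of all 7 genes. Among all protein-coding genes, 32.6% had a replicate 1 peak in such a window and 90.9% had a replicate 2 peak, so that neither count stood far from the background. Intervals shared by both lists (an overlap of at least 1 bp) were found at FOS and JUNB, 2 of 7 genes, against 15.7% of all protein-coding genes. The member genes are short, and among the 9604 protein-coding genes no longer than FOSL2, the longest at 24870 bp, the shares were 18.5% for replicate 1, 84.8% for replicate 2 and 9.64% for shared intervals. The 7 windows held 4 peaks of replicate 1 with 700 tags and 44 peaks of replicate 2 with 2357 tags. The median was 7 replicate 2 peaks per window, against 5 over all protein-coding genes and 4 over the short ones. The mean was 6.286, below the 7.239 of all protein-coding genes and above the 4.107 of the short ones. No test was run on these counts, which describe 7 chosen genes in a pair of lists.

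At the start site itself, DEK peaks of replicate 2 were found at nearly all members and those of replicate 1 at JUNB. A replicate 2 peak covered a TSS at 6 of 7 genes, against 44.5% of all protein-coding genes, and JUND was the exception. A replicate 1 peak covered a TSS at JUNB alone among the 7, against 7.3% of all genes, and the shared interval over a TSS was again at JUNB (3.35% of all genes). The middle of a shared interval lay within 1 kb of a member's TSS at none of the 7, against 4.38% of all genes, since the JUNB interval is wide and has its middle 1233 bp past the TSS. H3K4me3 covered a TSS in both precipitations at all 7 genes, against 55.2% of all genes. Among the 11124 genes with that mark, 60.4% had a replicate 2 peak over a TSS, 12.3% had a replicate 1 peak there and 21.2% had a shared interval in the window. The map of the 7 windows shows these positions.

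**Figure D1:**
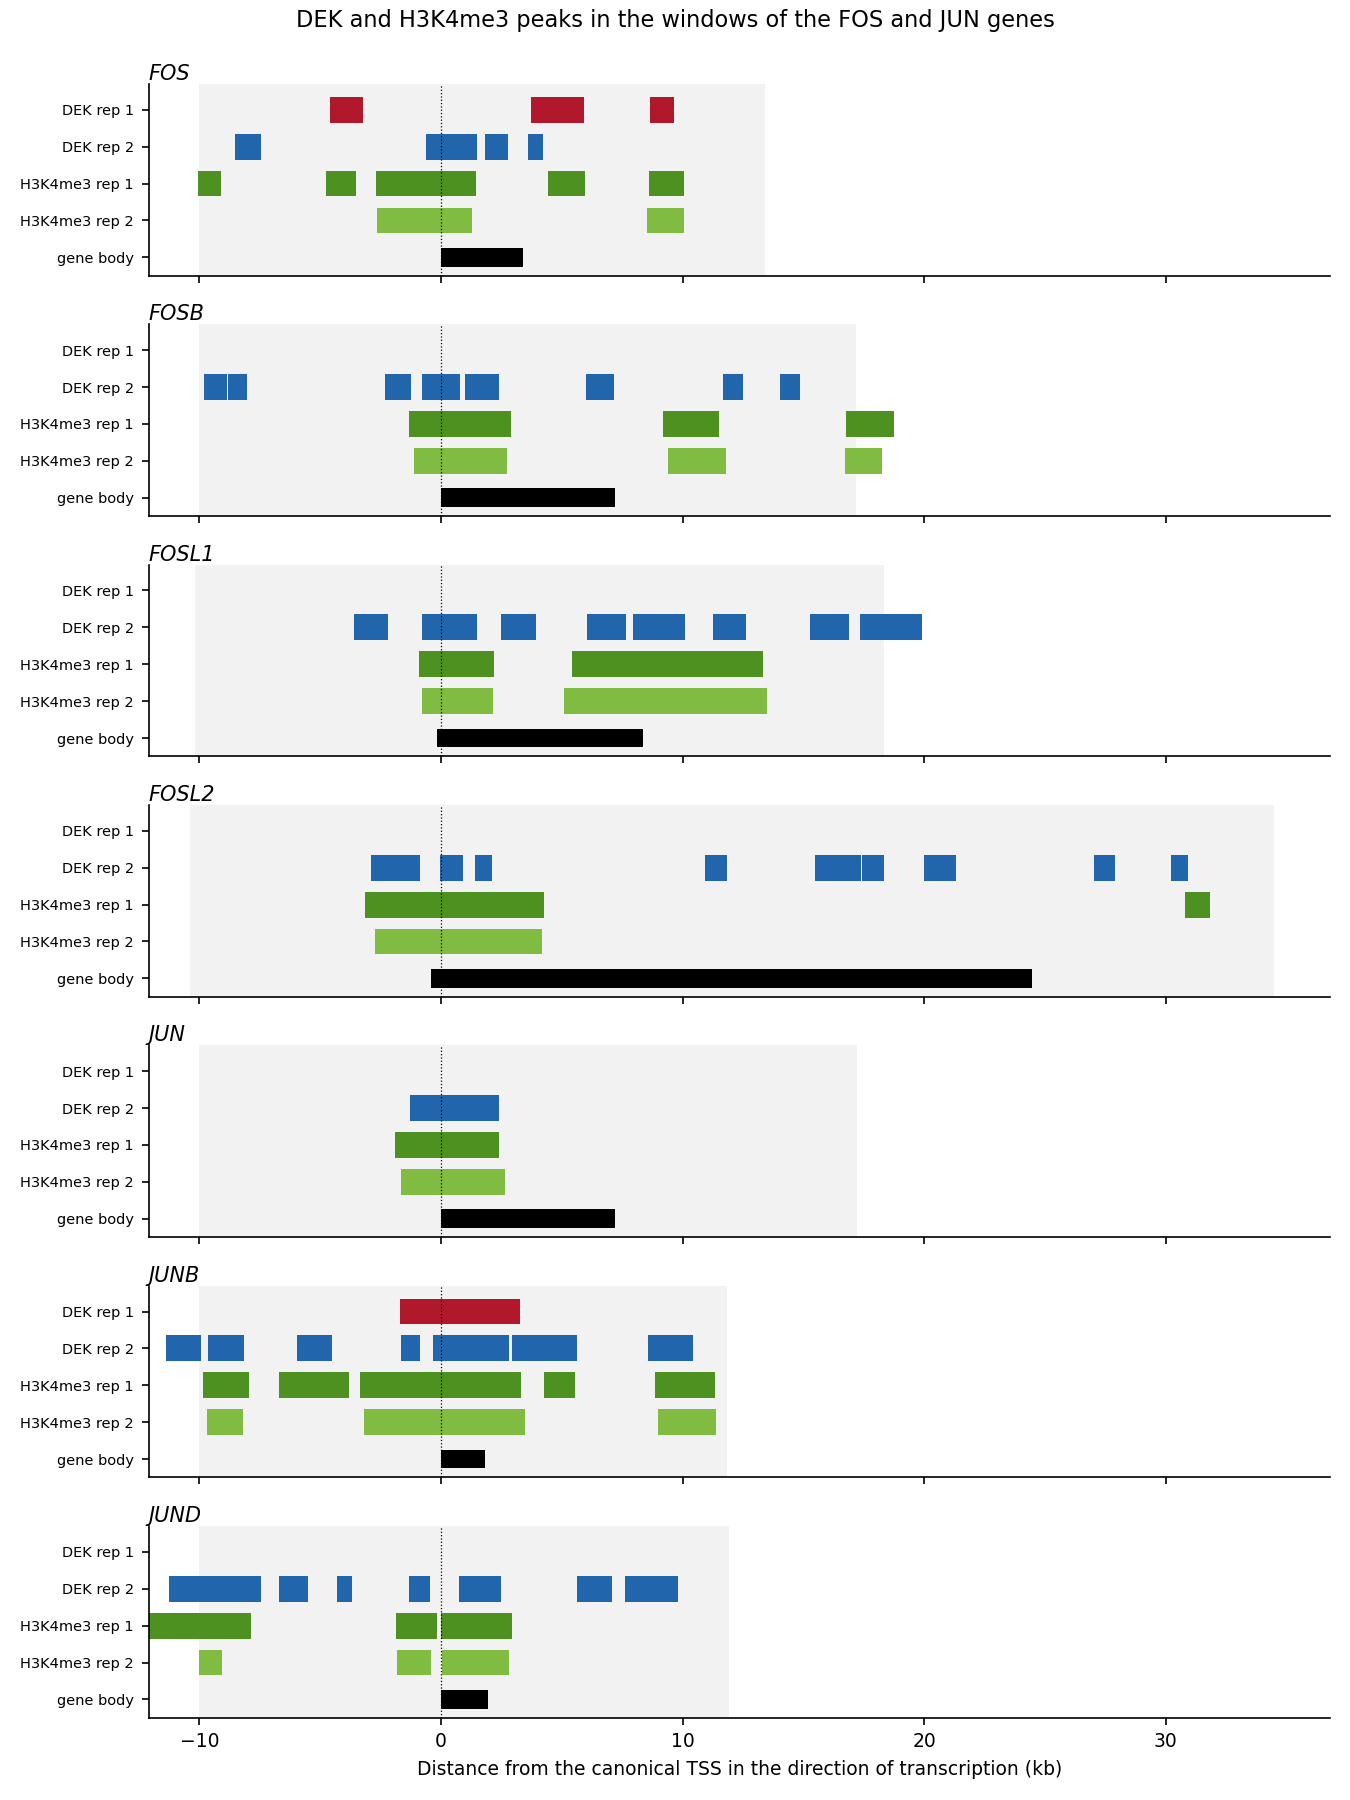
Peaks of DEK replicate 1 (red), DEK replicate 2 (blue) and H3K4me3 replicates 1 and 2 (dark and light green) in the windows of the 7 genes (grey), drawn against the distance from the canonical TSS in kb, with transcription to the right, the gene body in black and the TSS as a dotted line. Red bars are present at FOS and JUNB, blue bars in all 7 windows, and the TSS is under a blue bar at all genes except JUND.

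Of the 7 genes, JUNB had the replicate 1 peak with the most tags and was the one with a DEK peak over its start site in both lists. It is a single-exon gene at chr19:12902300-12904129 on the plus strand, inside the annotated span of HOOK2, which encodes a protein that ties cargo to microtubules. In replicate 1, 1 peak of 4958 bp (chr19:12900605-12905562) held 445 tags (interval 404.6 to 488.3), at or above 99.78% of that list, and its summit lay 25 bp past the TSS. In replicate 2, the peak at chr19:12901957-12905109 held 147 tags (124.2 to 172.8), at or above 99.29% of its list, and covered the whole gene. Its summit was 1240 bp past the TSS, 1215 bp from that of replicate 1. By their middles, both peaks were nearer to a start site of HOOK2 than to that of JUNB. The distances were 312 against 783 bp in replicate 1 and 137 against 1233 bp in replicate 2. The HOOK2 start at those distances lies within the body of JUNB. The replicate 1 summit, by contrast, was 25 bp from the JUNB TSS. Middle and summit thus point to different start sites for that peak, and position alone does not assign these peaks to JUNB.

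The wide JUNB peak of replicate 1 met 3 peaks of replicate 2, which gave 3 shared intervals. The first was 782 bp long, lay upstream with its middle 1274 bp before the TSS and held 35 tags in replicate 2. The second was the 3153 bp over the gene, which made up 63.59% of the replicate 1 peak. The third was a stretch of 327 bp downstream, where the replicate 2 peak of 90 tags had a low score of 51.59 (the score is 10 times the −log10 of the p-value of the peak caller) and 2.992% of the list lay at or below it. The 3 intervals rest on 1 peak of replicate 1 and are thus not independent. All 3 overlapped H3K4me3 peaks of both precipitations, against 33.7% of all 4453 shared intervals. That share was not limited to genes with the mark over a TSS. Both JUNB peaks over the TSS were wide and had many tags but a low fold enrichment. It was 3.17 in replicate 1, at or above 1.105% of that list, and 3.28 in replicate 2, at or above 11.49%.

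JUN, the partner common to many AP-1 dimers, had a strong peak in one list and none in the other. Its window held 1 DEK peak, in replicate 2, at chr1:59247335-59251018, which reached from 1299 bp before to 2384 bp past the TSS of the gene (chr1:59242517-59249720, minus strand, 1 exon). It held 171 tags (146.3 to 198.6), the most of any member peak in replicate 2 and at or above 99.5% of the list. The score of 527.31 was at or above 99.57% of the list, and the fold enrichment of 4.5 was near its middle, at or above 48.13%. No replicate 1 peak was listed within 98830 bp of JUN, and the nearest shared interval lay 138068 bp upstream (chr1:59387788-59388500, with 51 tags in replicate 1 and 19 in replicate 2). The replicate 2 peak had almost the outline of the mark beside it, since the H3K4me3 peaks ran from chr1:59247325 to 59251615 and from 59247068 to 59251380.

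JUND, the JUN gene that is transcribed steadily, was the member with no DEK peak over its start site in either list. The gene lies at chr19:18390504-18392432 on the minus strand, and replicate 2 had a peak on each side of the canonical TSS. The peak within the gene began 755 bp past it (55 tags), and the other ended 468 bp before it (28 tags). The gene has 2 annotated start sites. The middle of the inner peak lay 1625 bp past the canonical TSS but 932 bp from the other, which the peak did not cover. The H3K4me3 peaks also parted near the TSS, over a narrower gap, so that most of the DEK gap within the gene lay under the mark. The inner peak ended at position 18392430 in replicate 1 and 18392400 in replicate 2, the outer peak began at 18392583 and 18392850, and the canonical TSS is at 18392432, so that the mark covered the other annotated TSS of JUND and not the canonical one. The most tags in the window, 127 (105.9 to 151.1), lay in a peak of 3811 bp with its middle 9370 bp upstream. The nearest replicate 1 peak was 110545 bp away and the nearest shared interval 196244 bp away, where the nearest start site was that of ELL, which encodes an elongation factor of RNA polymerase II.

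FOS, the prototype of its family, had peaks in both lists that met at a single place behind the gene. The gene lies at chr14:75745529-75748933 on the plus strand. Replicate 1 had 3 peaks and none over the TSS: 94 tags with the middle 3921 bp upstream, 105 tags with the middle 4812 bp downstream and 56 tags with the middle 9154 bp downstream. Replicate 2 had 4 peaks, of which the one over the TSS (chr14:75744896-75747021) held 82 tags (65.22 to 101.8) and had its summit 86 bp past the TSS. The others held 31 tags with the middle 7980 bp upstream, 40 tags within the gene and 30 tags past the gene. The replicate 2 peaks over the TSS and in the gene thus had no counterpart in replicate 1, and the replicate 1 peaks upstream and farthest downstream had none in replicate 2.

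The shared interval at FOS was short, at the edge of the replicate 1 peak and around the summit of the replicate 2 peak. It spanned 479 bp (chr14:75749256-75749734), began 323 bp past the end of the gene and lay between genes, with its middle 3964 bp past the TSS. It took up 22.01% of the replicate 1 peak and 77.26% of the replicate 2 peak, and the summits of the peaks were 1416 bp apart. It overlapped no H3K4me3 peak of either precipitation. The replicate 1 score there was 59.47, below the list's median of 68.8, and the replicate 2 score was 122.64, above the median of 78.28. Part of the interval is repeated widely, since 32% of its words of 24 letters occur over 100 times in the genome. No word of that kind was in the replicate 2 peak over the FOS TSS or in the shared interval over JUNB. Over the replicate 2 peaks of all member windows the share ran from 0% to 60.5%, the latter in a peak upstream of JUNB. Such words were thus not particular to the FOS interval. The part of repeated sequence in the FOS interval was not tested.

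**Figure D2:**
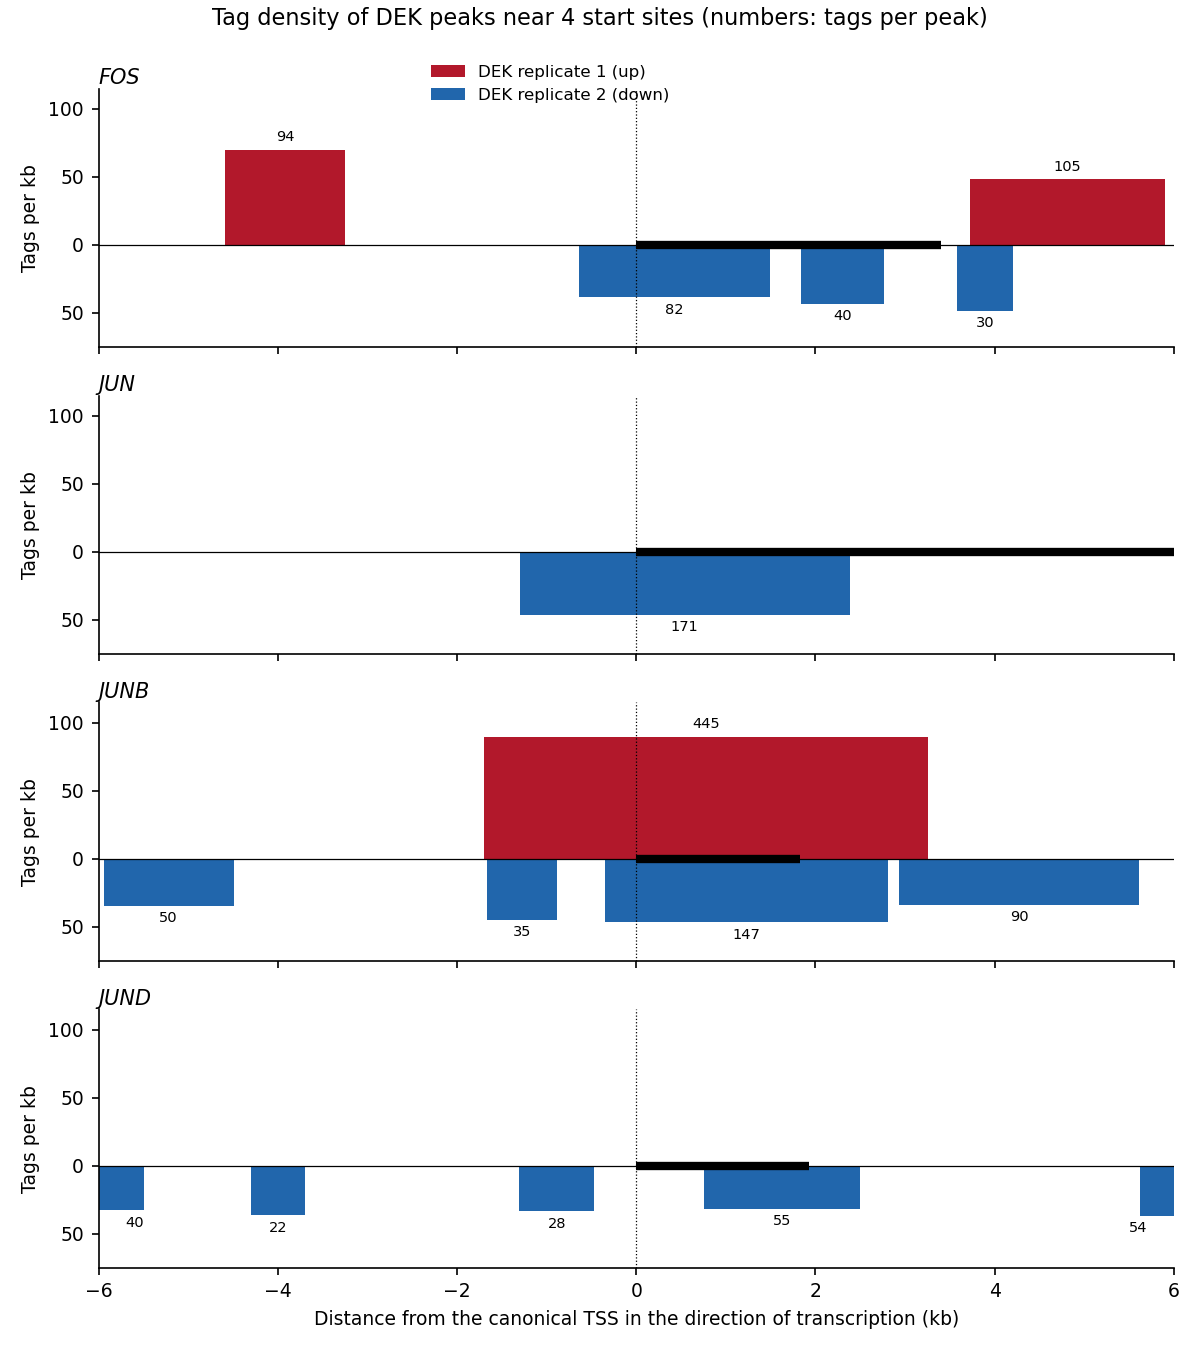
Tags per kb of each DEK peak (bar height) against the distance from the canonical TSS in kb, for FOS, JUN, JUNB and JUND. Replicate 1 is drawn upward in red and replicate 2 downward in blue, bar widths are peak widths cut at 6 kb, numbers give the tags of each peak, and the black line is the gene body. JUNB has bars on both sides of the axis over its start, JUN and FOS have a replicate 2 bar alone there, and JUND has none.

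The other FOS genes had replicate 2 peaks over the start site and no replicate 1 peak in the window. FOSB (chr19:45971253-45978437, plus strand), a relative of FOS that is also induced at once by signals, had 8 peaks of 26 to 65 tags, of which 64 tags (49.29 to 81.73) lay over the TSS in a peak of 1563 bp centred 8 bp before it. A second peak of 65 tags followed within the gene, and both overlapped H3K4me3 of both precipitations. The nearest shared interval lay 11381 bp upstream, just beyond the window and nearest to a start site of ERCC1, a DNA repair gene, with 70 tags in replicate 1 and 37 in replicate 2.

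FOSL1 and FOSL2 encode FRA1 and FRA2, FOS proteins without the strong activating domain of FOS itself. FOSL1 (chr11:65659520-65668044, minus strand) had 8 peaks of 39 to 94 tags, and the one over the TSS held 92 tags (74.16 to 112.8) with a score of 178.12. A peak with 94 tags and a higher score, 277.87, lay at the far end of the gene, where the start site of CCDC85B was 696 bp away and that of FOSL1 9018 bp. The nearest replicate 1 peak and the nearest shared interval lay 50195 and 50227 bp downstream. FOSL2 (chr2:28615315-28640184, plus strand) had the most peaks of any member in replicate 2, 9 with 22 to 72 tags, and the lowest count over the TSS, 25 tags (16.18 to 36.9). Its highest count was in the peak upstream of the gene, with the middle 1897 bp before the canonical TSS. The nearest replicate 1 peak was 12643 bp upstream (73 tags) and the nearest shared interval 18801 bp downstream (134 and 41 tags).

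Ordered by tags per kb, which allows for width, the replicate 2 peaks over the TSS ran from JUNB (46.62), JUN (46.42), FOSB (40.95), FOSL1 (40.32) and FOS (38.57) to FOSL2 (26.01). JUNB and JUN did not differ beyond counting error, and FOSB, FOSL1 and FOS overlapped them and each other in their intervals. FOSL2 (interval 16.84 to 38.4) lay below JUN (39.72 to 53.92) and JUNB (39.4 to 54.8) and overlapped FOSB, FOSL1 and FOS. Against the 5110 replicate 2 peaks over a canonical TSS of a protein-coding gene, where the median was 41 tags in 1205 bp, 97.83% had no more tags than JUN, 96.99% no more than JUNB, 89.06% no more than FOSL1, 85.5% no more than FOS, 74.6% no more than FOSB and 22.58% no more than FOSL2. In fold enrichment the order was another one, with JUN at 4.5, JUNB at 3.28, FOSB at 3.15, FOSL2 at 3.12, FOSL1 at 2.96 and FOS at 2.68, against a median of 3.82 over those peaks and 4.58 over the list. JUN was thus the single member whose TSS peak lay above the median of the TSS peaks in fold enrichment. Each value comes from 1 precipitation, and the spread between precipitations is not known.

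**Figure D3:**
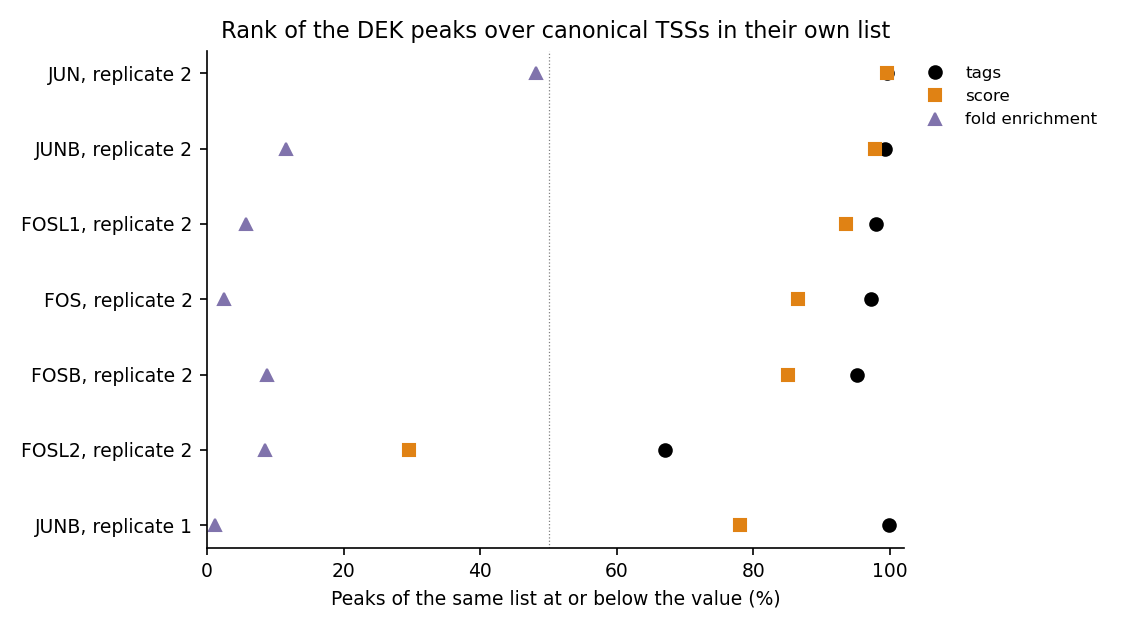
Percent of peaks in the same DEK list at or below each peak over a member's canonical TSS, in tags (circles), score (squares) and fold enrichment (triangles), with a dotted line at the middle of the list. Tags lie at 95.11% or more for all peaks shown except that of FOSL2 (67.1%), while fold enrichment lies at 11.49% or less for all except JUN (48.13%).

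Many peaks in these windows were closer to another gene. Of the 44 replicate 2 peaks, 29 had the member as the nearest protein-coding start site and 15 had another gene, and 15 lay upstream of the member, 16 in its body and 13 downstream. At JUNB, the start sites of HOOK2 and of PRDX2, which encodes an antioxidant enzyme, were nearer to 5 of the 7 peaks. At FOSL1 the neighbours were CCDC85B, FIBP and CTSW. At FOSB the neighbour was ERCC1 and at JUND it was IQCN. Overlap with H3K4me3 of both precipitations was seen for 19 of the 44 peaks, against 7.74% of all replicate 2 peaks. In replicate 1, all 4 member peaks overlapped an H3K4me3 peak of replicate 1, against 50.2% of that list, and 2 of the 4 overlapped one of replicate 2. All 7 members have the mark over a TSS, whereas the list shares were not limited to windows of such genes. The shares are thus not like for like. The H3K4me3 peaks under the FOS peaks 3921 bp upstream and 4812 bp downstream were in the first H3K4me3 list and not in the second.

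AP-1 sites stood near the summits of some of these peaks. In the 300 bases around the summit, 5 of the 44 replicate 2 peaks held TGACTCA on either strand (11.4%), against 3.26% of 152313 replicate 2 peaks, and none of the 4 replicate 1 peaks did, against 9.12% of that list. The 5 peaks belonged to FOSL1, FOSL2, JUNB (2 peaks) and JUND. A JUNB peak of 42 tags, centred 8913 bp upstream, held 3 sites within 20 to 74 bp of its summit, and the FOSL1 site lay 996 bp past the TSS in the peak over the start. A CRE was near none of the summits (0.272% of all replicate 2 peaks), and its variant was near 1, at FOSL2, 30515 bp past the TSS (0.681%). The members' summit windows had a median GC content of 58.5%, against 54% over the list. CCAAT was in 29.5% of the 44 peaks (18.3% of the list), the PU.1 core in 20.5% (14.3%) and the GC box in 27.3% (22.7%). TATAAA was in 11.4% (9.03%) and the E-box in 6.82% (5.05%), while the CArG box was near none (0.578%). A share above that of the list, which was not limited to gene windows, was thus not particular to the AP-1 site.

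Genes that act with, above and below AP-1 had shared intervals in 12.5% to 19% of cases, near the 15.7% of all protein-coding genes. Of 21 bZIP partners and relatives, 4 had a shared interval in the window: BATF (107 tags in replicate 1 and 55 in replicate 2), which pairs with JUN proteins in immune cells, NFE2L2 (27 and 24), ATF6 (36 and 22) and CREM (28 and 22). Of 17 kinases and factors upstream of AP-1, 3 did, with RPS6KA1, a kinase below ERK, at 438 and 175 tags, MAPK3, which is ERK1, at 39 and 59, and MAP2K1, which activates ERK, at 82 and 23. Of 16 genes known as AP-1 targets in myeloid cells, 2 did: TGFB1 (272 and 171) and CCL3 (46 and 27). None of these shared intervals covered a start site of its gene except that of RPS6KA1.

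The immediate early genes other than FOS and JUN genes had a shared interval in 6 of 20 cases, or 30%, and the members in 2 of 7, or 28.6%, against 15.7% of all protein-coding genes. They were IER2 (84 tags in replicate 1 and 145 in replicate 2), ZFP36 (190 and 65), which encodes an mRNA decay factor, NR4A3 (79 and 52), NR4A1 (80 and 37), DUSP1 (108 and 33), which encodes a phosphatase of MAP kinases, and KLF2 (275 and 26). At ZFP36 and NR4A3 the interval covered the start site, with the middle 314 and 238 bp from it. At the others the interval covered no start site of its gene. Its middle was 1180 bp from the nearest one at DUSP1, 2359 bp at NR4A1, 2629 bp at KLF2 and 12555 bp at IER2. A replicate 2 peak covered a TSS at 14 of the 20 (70%), against 9 of 21 bZIP relatives (42.9%), 7 of 17 upstream genes (41.2%) and 6 of 16 targets (37.5%). The share over all protein-coding genes was 44.5%, close to that of the last 3 lists. H3K4me3 of both precipitations covered a TSS at 17, 19, 14 and 9 of them in the same order (55.2% of all protein-coding genes). KLF2 was among the immediate early genes without it. The mark was more frequent in the first 3 lists (85%, 90.5% and 82.4%) than over all genes. Among all genes with that mark, 60.4% had a replicate 2 peak over a TSS and 21.2% a shared interval in the window. The shares of 44.5% and 15.7% are thus not like for like with those lists.

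**Figure D4:**
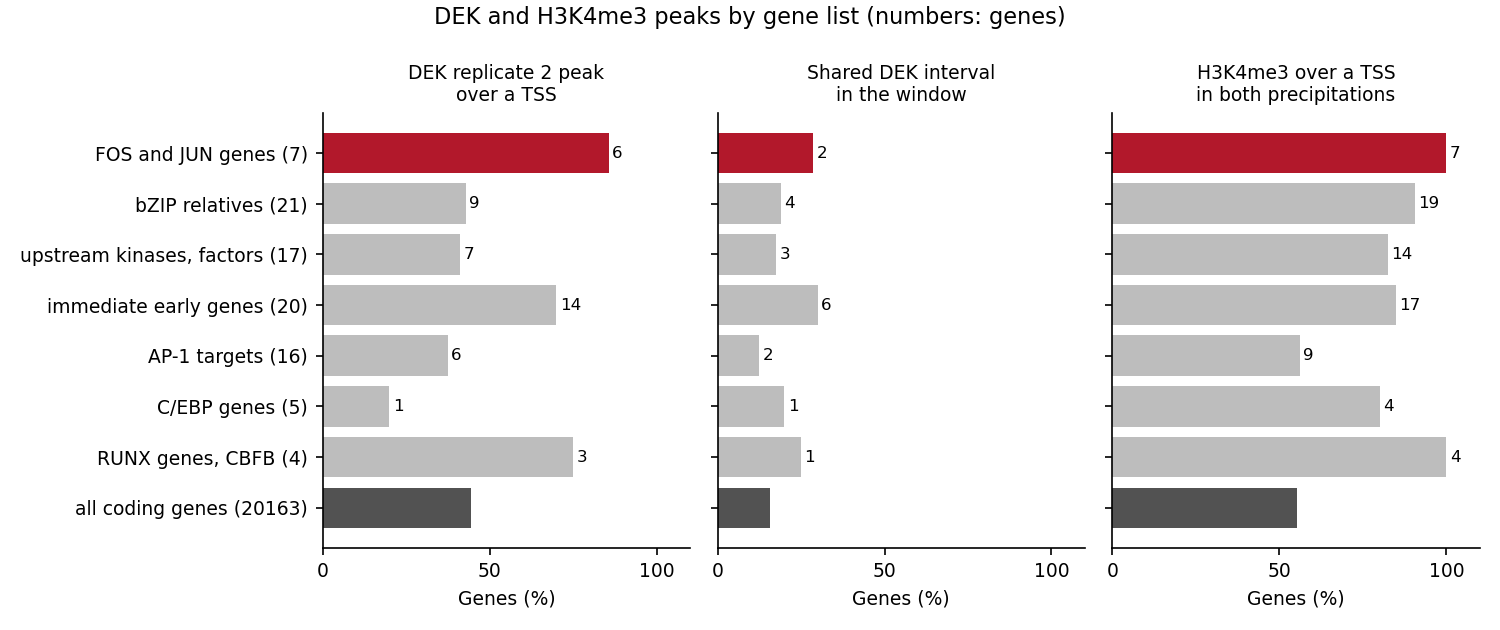
Percent of genes in each list with a DEK replicate 2 peak over a TSS (left), a shared DEK interval in the window (middle) and H3K4me3 over a TSS in both precipitations (right), with the number of genes beside each bar and the list size in brackets. The bar of the FOS and JUN genes (red) is at 85.7% on the left, 28.6% in the middle and 100% on the right, and the bar of all protein-coding genes (dark) at 44.5%, 15.7% and 55.2%.

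Among the other myeloid regulators set beside them, 1 of 5 C/EBP genes had a shared interval (CEBPG, 180 and 119 tags, with the middle 1303 bp from its nearest TSS). Of the RUNX genes with CBFB, 1 of 4 had any, RUNX1 with 7 intervals over an annotated span of 1216868 bp. A replicate 2 peak covered a TSS at 1 of the 5 C/EBP genes and 3 of the 4 RUNX genes with CBFB, against 6 of the 7 FOS and JUN genes. H3K4me3 covered a TSS at 4 of 5 and 4 of 4. Over all protein-coding genes the shares were 15.7% for a shared interval, 44.5% for a replicate 2 peak over a TSS and 55.2% for H3K4me3. With so few genes in each group these counts were set side by side and not tested.

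The gene whose peaks were spread around the TSS most like those of FOS was SMIM3 on chromosome 5 (Pearson r = 0.595), nearly tied with TWF1 (r = 0.592), and the one most like JUNB was WDR74 on chromosome 11 (r = 0.692). The measure was the share of each 500 bp bin under peaks from 10 kb before to 10 kb after the outermost TSS, in both lists, which gave 80 values per gene. Bins of 1 peak are not independent, and the values describe likeness of position only.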

How the data were processed

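DEK was precipitated in 2 independent ChIP-seq experiments on U937 cells, and the DNA was sequenced as paired-end reads. The labels name 2 replicates for H3K4me3, a precipitation that the study's methods do not describe. Per the labels and the study's methods, the authors used Bowtie 2 for alignment (hg19) and MACS 1.4.1 at default parameters for peaks, separately for each precipitation, with non-precipitated chromatin as control. The deposited DEK lists give, for every peak, a tag count that the authors did not normalize, a score of 10 times the −log10 of the p-value, a fold enrichment (a ratio of tags to the number MACS modelled locally) and a false discovery rate in percent. The deposited H3K4me3 lists give positions only.

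Peaks were assigned to GENCODE release 44 genes on GRCh37, whose chromosomes have the sequence of hg19, with 10 kb on each side of the gene body. The canonical TSS is the start of the transcript tagged as canonical. Shared intervals are intersections of at least 1 bp. Promoter and summit sequences of 300 bases and the copies of 24-letter words in peaks were read from GRCh37, while promoter tables of another build were not used. Calculations were run with pysam 0.24.0, Matplotlib 3.10.9, SciPy 1.17.1, pandas 2.3.3 and NumPy 2.4.6 under Python 3.11.15, and the overlap functions were tested on simulated intervals, where 30 of 30 checks passed. No statistical test was run. Markers of other cell types and the sequence of the shared interval at FOS are not reported here. The study's methods set a minimum of reads for all samples but give no total for each, so the depth behind each list is unknown here. With a pair of lists of such unequal length, agreement between replicates could be described by overlap alone.

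The members, lists and motifs were chosen with earlier results of these data known. Genes named are the 7 members, neighbours closer to a peak than the member, the listed genes with a shared interval (at most 6 a list, by the lower tag count) and, for each member with a shared interval, the gene with the most alike profile. Alternatives were other windows, a score of at least 100, lists of equal length, an overlap of 50%, other TSS rules and each replicate alone.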

Additional observations from a re-analysis of the deposited data

How the results depend on the processing

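Of 34 alternatives, 19 kept their count within 1.5 times and 15 did not. JUNB remained in every alternative for shared intervals in the window, and FOS did not. A window of 20 kb raised the members with a replicate 1 peak from 2 to 4 and those with a shared interval from 2 to 4, by adding FOSB and FOSL2. A score of at least 100 lowered the members with a replicate 1 peak to 1, the members with a shared interval to 1 and the shared intervals from 4 to 1, leaving JUNB. Asking for 50% of both peaks in the overlap also left 1 member and 1 interval, and cutting replicate 2 to the length of replicate 1 by score left 1 member with a shared interval. In that shorter list 5 members kept a replicate 2 peak, and FOS and FOSB lost theirs. With either replicate alone, the members with a peak in the window ranged from 2 (without replicate 2) to 7 (without replicate 1). Members with a shared interval whose middle lay within 1 kb of the TSS numbered 0. That count became 1 (JUNB) with any overlap with 1 kb on each side, with 2 kb, or, in an alternative added after the data were seen, with the interval over the TSS itself, and 1 to 6 with either replicate alone. The share of protein-coding genes with a shared interval fell from 15.7% to 9.64% among genes no longer than the longest member. H3K4me3 lay over a TSS at 6 rather than 7 members when the canonical TSS alone was used, an alternative also added later. No paired analysis was possible because no result came from a test. Replicate 1 had 15017 peaks and replicate 2 had 152779, and the absence of a peak there does not show that DEK was absent.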
